A study of Caenorhabditis elegans with 95 samples.

Results

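Receptors for neurotransmitters were followed in *C. elegans* adults over the day, under light cycles, temperature cycles and constant conditions. The members are all probe sets, among the 22548 of the array, that are assigned to 1 gene whose symbol is *acr*, *lgc*, *glr*, *nmr*, *gar*, *dop* or *ser* followed by a number. They stand for 89 of 17118 genes, 12 of them with several probe sets. The rule uses gene names only and no measured value, but it was set with earlier results of these data known. There were 20 *acr* genes for nicotinic-type acetylcholine receptor subunits, 45 *lgc* genes for other ligand-gated channels of the Cys-loop type, 9 *glr* and 2 *nmr* genes for ionotropic glutamate receptors, 3 *gar* genes for muscarinic-type receptors, 4 *dop* genes for dopamine receptors, and 6 *ser* genes for receptors of serotonin, tyramine and octopamine. A further 8 probe sets that carry such a symbol together with another symbol were left out.

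In the worm, acetylcholine opens nicotinic-type channels on muscle and neurons and drives body movement, while glutamate receptors of the AMPA and NMDA types act in the interneurons that command forward and backward movement. Channels of the Cys-loop type open directly on binding acetylcholine, GABA, glutamate or an amine, and let either cations or chloride pass. The *gar*, *dop* and *ser* receptors signal through G proteins and adjust feeding, locomotion and egg laying over longer times.

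RNA came from whole adults of the wild-type strain Bristol N2, kept on FUDR from the L4 stage so that no progeny developed. LD animals (18 arrays, series 3, 4 and 6) were at 18°C in the last of 5 days of light/dark cycles, and DD animals (18 arrays, series 2, 4 and 6) were in the first day of constant darkness after such cycles. WC animals (30 arrays, series 1, 2, 3, 4 and 6) were in the last of 4 days of cycles between 25°C and 15°C in darkness, and CC animals (18 arrays, series 3, 4 and 6) were in the first day at constant 15°C after such cycles. Non-entrained controls (11 arrays, series 4 and 6) were kept in complete darkness in the incubator of the light experiments, and hour 6 of series 6 is not analysed here. Arrays were taken at hours 2, 6, 10, 14, 18 and 22, counted from the onset of light or warmth, and 5 arrays (2 of LD, 3 of CC) each stand for 2 biological replicates. Animals were kept in incubators on opposing cycles, so that hours 2 to 10 and hours 14 to 22 of a series may come from different populations, and phase and population then cannot be told apart. A free-running day also differs from the entrainment day before it by 1 day of age.

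The deposited values are scores. Each probe set was expressed relative to its own mean over a time series on the log2 scale, and each array was then set to a mean of 0 and an SD of 1, so that a score of 1 is 1 array SD above that mean. No expression level and no fold change can be had from a score. Probe sets that did not move within a series share nearly the same score on an array, here called the common score. It lay between -0.106 and 0.105 on the 95 arrays. A probe set resting on the common score may be near the detection limit or steadily expressed, and the scores do not tell which.

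Most receptor probe sets moved little. Of all members 38 (36.5%) rested on the common score in all 5 conditions (a root mean square distance under 0.1), against 16.3% of all probe sets, and 30 (28.8%) left it in all 5, against 64% of all probe sets. By condition, 40 members left the common score in LD and 46 in DD, while the numbers were 52 for WC, 50 for CC and 48 for the controls. This is 38.5%, 44.2%, 50%, 48.1% and 46.2% of them. Among all probe sets these shares were 70.9%, 72.8%, 76.9%, 73% and 73.5%. Over the 95 arrays, 44 members (42.3%, against 25.5% of all probe sets) never stood more than 1 score unit from the common score, and 31 (29.8%, against 20.2%) did so in 1 to 5 arrays. The tests that follow cover only the members that left the common score in a condition, and so are not tests of the whole group.

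**Figure D1:**
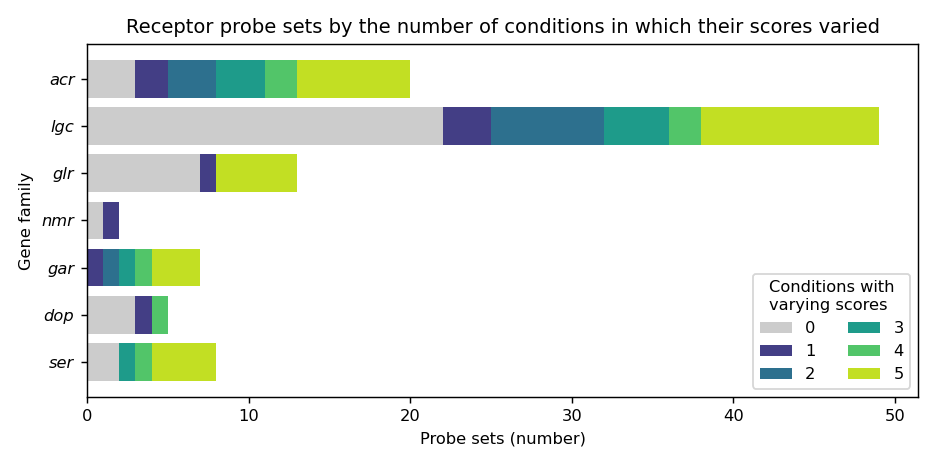
Number of receptor probe sets (horizontal axis) in each gene family (rows), coloured by the number of conditions, from 0 to 5, in which their scores left the common score. Of 49 *lgc* probe sets 22 rested on the common score in every condition (grey), while all 7 *gar* probe sets left it in at least 1.

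The families differed in how many members rested. On the common score in all 5 conditions were 3 of 20 *acr* probe sets, 22 of 49 *lgc*, 7 of 13 *glr*, 1 of 2 *nmr*, 0 of 7 *gar*, 3 of 5 *dop* and 2 of 8 *ser* probe sets. Among them were both probe sets of *dop-1*, which encodes a D1-type dopamine receptor, the probe set of the D2-type receptor gene *dop-2*, and the probe sets of *ser-2* (a tyramine receptor) and *ser-5* (a serotonin receptor). The probe set of *glr-3*, a kainate-type receptor known as a cold sensor in a sensory neuron, also rested there, with distances of 0.08 in DD and 0 in the other conditions to 2 decimals. No statement about the daily course of these genes can be made from the scores.

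Daily change was tested per condition with limma in 2 ways, with the time series as a block. The first is the difference between the mean of hours 2, 6 and 10 and the mean of hours 14, 18 and 22 (light minus dark in LD, warm minus cold in WC, and the same hours elsewhere). The second is a 24-h cosine, whose amplitude is from mean to peak. A call is a Benjamini-Hochberg adjusted p under 0.05 over all probe sets tested in a condition. In the difference between phases, 1 of 52 members passed in WC, where 3.84% of all probe sets passed. None passed in LD (0 of 40, against 11.5% of all), DD (0 of 46, against 0%), CC (0 of 50, against 0.164%) or the controls (0 of 48, against 0%). An unadjusted p under 0.05 was found for 7 members in WC, 3 each in LD and the controls, and 2 each in DD and CC. Among all probe sets tested it was found for 2920 of 17342 in WC, 5160 of 15989 in LD and 523 of 16579 in the controls. In DD it was found for 2537 of 16406 and in CC for 2605 of 16470. In LD the median size of the difference was 0.11 over the 40 members and 0.43 over all probe sets tested, and in WC both medians were 0.24.

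In the 24-h test 2 of 52 members passed in WC, against 6.29% of all probe sets. No member passed in LD (against 1% of all), DD (0%), CC (0.0121%) or the controls (0%), and 1, 0, 1 and 3 members had an unadjusted p under 0.05 there. Among all probe sets 4213 of 15989, 2205 of 16406, 1612 of 16470 and 372 of 16579 had such a p. A test for differences among the hours within a phase was passed by 1 of 52 members in WC (0.375% of all probe sets). It was passed by 0 members in LD, DD, CC and the controls, where it was passed by 0% of all probe sets in each, and by 1, 1, 2 and 3 members at an unadjusted p under 0.05. At that level it was passed by 484, 635, 334 and 348 of all probe sets tested there. The members that passed at least 1 of these tests in WC were *acr-18*, *acr-12* and *lgc-32*.

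**Figure D2:**
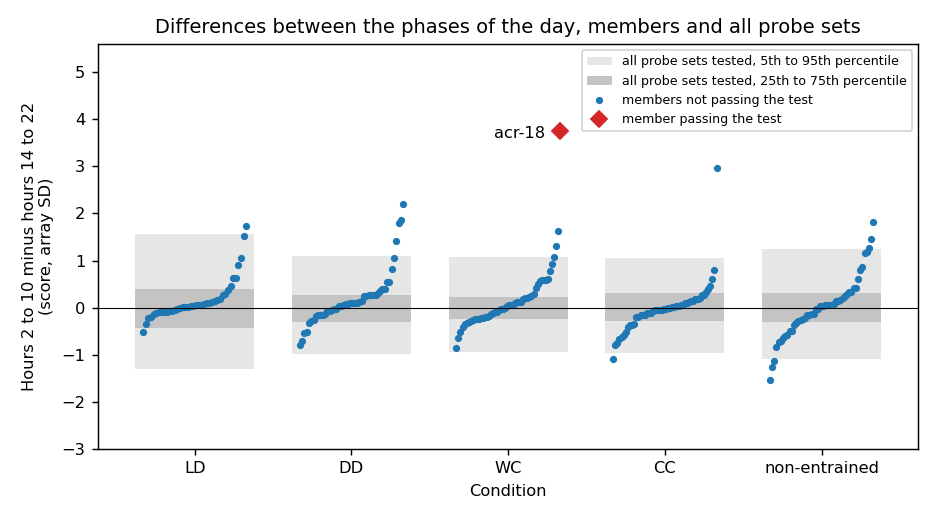
Difference between hours 2 to 10 and hours 14 to 22 in score units (vertical axis) for each member tested, sorted within a condition. Dots are members that did not pass the limma test, the red diamond is *acr-18* at 3.76 in WC, and the darker and lighter grey bands span percentiles 25 to 75 and 5 to 95 of all probe sets tested in that condition.

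The largest difference between phases among all members and conditions was that of *acr-18* in the temperature cycle. The gene encodes a nicotinic-type subunit of the DEG-3 group. At hour 6, in the warm phase, its scores in WC series 1, 2, 3, 4 and 6 were -0.28, 3.68, 6.6, 1.86 and 7.05, and at hour 10 they were 1.73, 3.25, 5.46, 2.2 and 10.57. At hour 18, in the cold phase, they were -0.29, -0.96, -2.84, -0.47 and -2.35. All 5 series thus had their highest score at hour 6 or 10, series 3 and 6 with the widest swing and series 1 with the smallest, and hours 10 and 18 did not overlap. Taken over all hours, the warm and cold phases overlapped (lowest warm score -1.12, highest cold score 0.97).

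The warm-minus-cold difference of *acr-18* was 0.65, 2.17, 7.31, 1.43 and 7.24 in series 1, 2, 3, 4 and 6. The limma estimate was 3.76 (SE 0.83, adjusted p = 0.0112), and the amplitude of the 24-h cosine was 3.16 (SE 0.59, adjusted p = 0.00395) with a peak at hour 8. The first call did not hold without series 3 (2.87, adjusted p = 0.164) or series 6 (2.89, adjusted p = 0.065), and the second did not hold without series 3 (2.7, adjusted p = 0.0618). RNA was taken from whole animals, in which a change in the number of cells that express a gene and a change of RNA per cell cannot be told apart.

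On the following day at constant 15°C the swing was not seen. In CC the 6 scores of *acr-18* ran from -2.77 to -2.11 in series 3, from -2 to 0.65 in series 4 and from -3.29 to -2.48 in series 6. The difference between phases was 0.05, 0.23 and 0.26 in these series. The low scores in CC reflect that WC and CC of a series were centred on 1 joint mean. The difference of the WC and CC contrasts was 3.58 (SE 1.14) and did not pass (adjusted p = 0.0627), where 4.91% of all probe sets and 0 of 56 members passed and 8 members had an unadjusted p under 0.05. Such a p was found for 3428 of all 17646 probe sets tested.

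Outside the temperature experiment *acr-18* moved in few arrays. In DD its scores beyond 1 were 1.79 and -1.1, at hours 2 and 14 of series 4. In LD 16 of 18 arrays lay between -0.2 and 0.07, with single scores of 1.23 (series 4, hour 6) and 0.95 (series 6, hour 14). Its light-minus-dark difference was 0.01, 0.39 and -0.34 in series 3, 4 and 6. The contrast in LD was lower than that in WC by the test of the difference itself (-3.74, SE 1.13, adjusted p = 0.0481), where 2 of 55 members passed against 5.25% of all probe sets. This call is thin, as it held without WC series 1 or 4 but not without any other series of either condition (adjusted p of 0.0518 to 0.263).

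The second nicotinic-type subunit that passed was *acr-12*, which is known from motor neurons. Its change in WC fell at a single hour. At hour 22, at the end of the cold phase, the scores in series 1, 2, 3, 4 and 6 were 0.08, 2.14, 2.81, 2.62 and 0.87. At the other 5 hours the 25 scores lay between -0.66 and 0.05. In series 2, 3, 4 and 6 hour 22 thus stood above every other hour of any series, while series 1 rested on the common score throughout.

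The hours within the phases of WC differed for *acr-12* (range of the hour means 1.92, adjusted p = 0.0378). Leaving out any of series 2, 3, 4 or 6 took the adjusted p to between 0.181 and 0.523. The warm-minus-cold difference was below 0 in all 5 series, from -1.18 to -0.1, and the estimate of -0.65 (SE 0.2) did not pass (adjusted p = 0.0756). In series 1, which rested on the common score, the sign cannot be told from a shift of the common score. It passed without series 1 (-0.78, adjusted p = 0.0162).

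In the light cycle *acr-12* was high at another time. At hour 6 of LD the scores were 1.51, 1.21 and 1.3 in series 3, 4 and 6, and apart from a score of 1.28 at hour 2 of series 6 no other LD array exceeded 0.22. The lowest LD score was -2.76 at hour 22 of series 6. The light-minus-dark difference of 0.9 (SE 0.36) did not pass (adjusted p = 0.11), with 0.61, 0.32 and 1.79 in the 3 series.

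The light and temperature contrasts of *acr-12* had opposite signs in every series, although WC series 1 rested on the common score and its sign is no evidence on the gene. Their difference passed (LD minus WC, 1.55, SE 0.38, adjusted p = 0.014). It did not pass without LD series 3 (adjusted p = 0.0721), LD series 6 (adjusted p = 0.074) or WC series 4 (adjusted p = 0.0526). On the free-running days the gene moved less: DD scores ran from -1.16 to 1.28 and CC scores from -0.33 to 0.65, the 2 highest of CC both at hour 14.

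**Figure D3:**
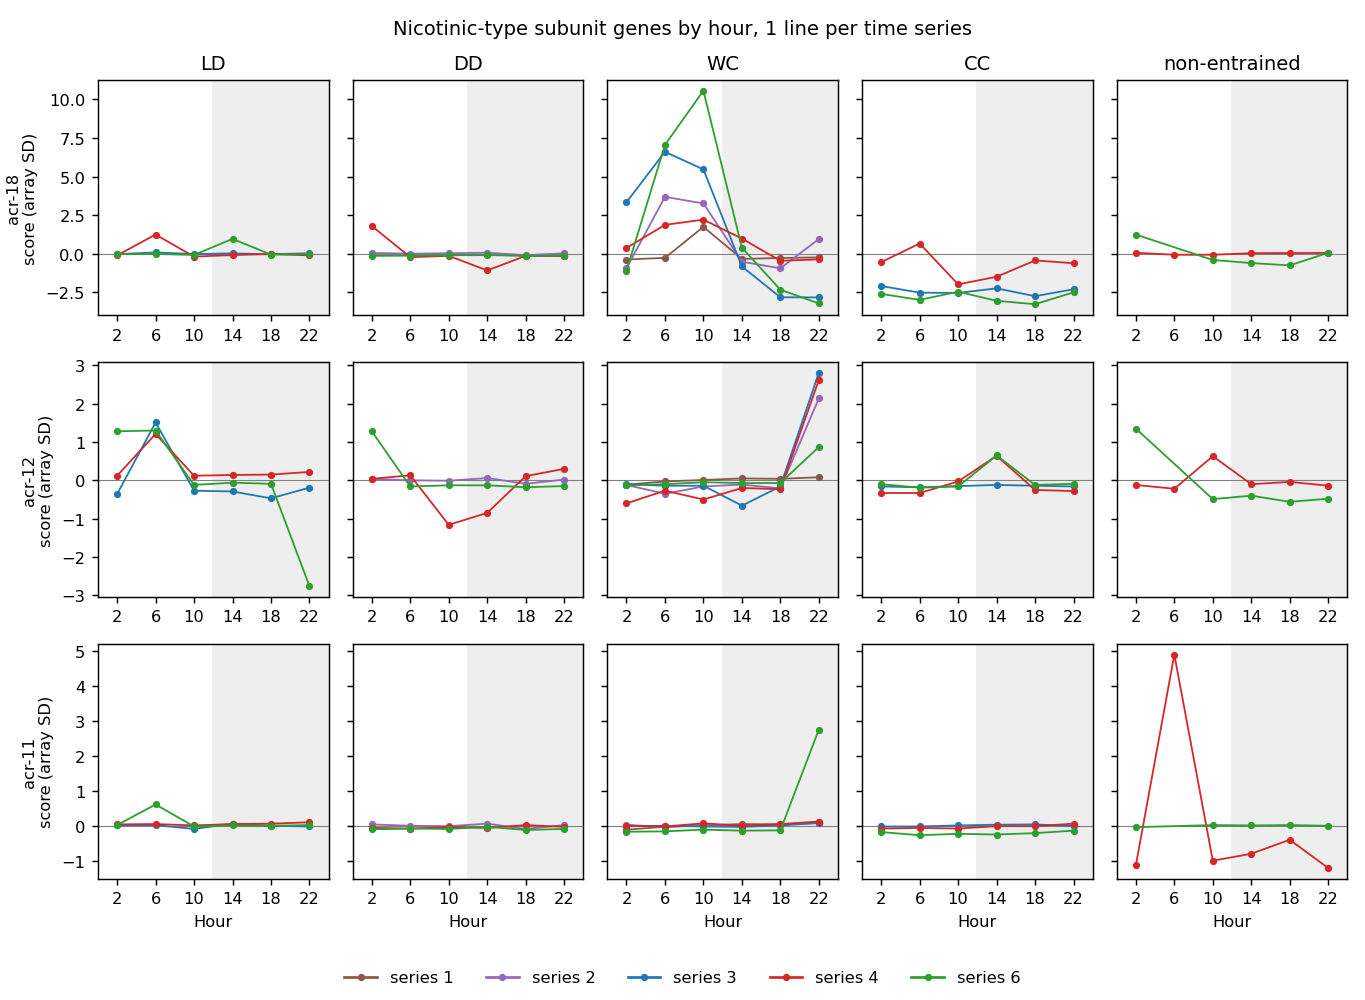
Scores in array SD units (vertical axes) of *acr-18*, *acr-12* and *acr-11* against the hour of the day, with 1 line per time series and hours 12 to 24 shaded. In WC *acr-18* peaks at hour 6 or 10 in all 5 series and *acr-12* is high at hour 22 in 4 of 5, while the *acr-11* score of 4.9 at hour 6 of control series 4 stands above the other 5 hours of that series, which lie between -1.21 and -0.4.

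A call for *acr-11*, a subunit of the group of *acr-16*, rested on 1 array. In the controls the score at hour 6 of series 4 was 4.9, the other 5 hours of that series lay between -1.21 and -0.4, and the 5 arrays of series 6 lay between -0.04 and 0.02. All 18 DD arrays lay between -0.12 and 0.06, and all LD arrays lay between -0.09 and 0.1 but for 0.61 at hour 6 of series 6. The only other score above 1 in the 95 arrays was 2.75 at hour 22 of WC series 6.

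The difference of contrasts for *acr-11* was -1.78 (SE 0.17, adjusted p = 5.86e-05) for LD minus controls and -1.84 (SE 0.15, adjusted p = 2.43e-05) for DD minus controls. Both comparisons share the control arrays, and in each 1 member passed (of 54 and of 59), against 0.281% and 0.0787% of all probe sets. In the controls hour 6 was analysed in series 4 only, so the model fits that array exactly. The SEs and p values of contrasts with the controls therefore take no spread from that hour. Without control series 4 the values were 0.06 and 0.0047. No control array of hour 6 was left in those fits, which averaged the remaining hours. They cannot show whether the high score at hour 6 would recur in another series. In the controls alone the difference between phases was 1.82 (SE 0.23) and did not pass (adjusted p = 0.529).

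Among the other nicotinic-type subunits *acr-8*, related to the levamisole receptor gene *lev-8*, differed between days. In LD series 4 and 6 its 12 scores ran from -2.58 to -0.66 with a median of -1.07, and in DD of the same series from -1.56 to 4.55 with a median of 1.17. The days overlapped, with 7 DD arrays above 1 and none in LD. The mean of LD was 2.35 lower (estimate -2.35, SE 0.61, adjusted p = 0.00451), and without series 4 or 6 the value was -2.14 or -2.56 and did not pass (adjusted p of 0.0905 and 0.0857). Its difference between phases in DD was 1.79 (SE 0.78, adjusted p = 0.304). Tests of day means, here and below, count the hourly arrays of a series as independent measures of the day.

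Of the *lgc* genes, *lgc-32* was the 1 that passed a daily test. In WC its highest score of the day was at hour 18 in series 2 (0.86), series 3 (1.76) and series 4 (2.28), at hour 22 in series 6 (1.8) and at hour 2 in series 1 (1.08). The 5 scores at hour 10 were -0.88, -1.77, -0.21, -0.87 and 0.23, and those at hour 18 were 0.03, 0.86, 1.76, 2.28 and 1.2. Within each series hour 18 was the higher of these hours.

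Its 24-h amplitude in WC was 0.75 (SE 0.19, adjusted p = 0.041) with a peak at hour 20. The call was lost without series 1, 3, 4 or 6 (adjusted p of 0.0566 to 0.207) and when the common score of each array was subtracted (0.72, adjusted p = 0.06). The warm-minus-cold difference was below 0 in all 5 series, from -1.35 to -0.34, and the estimate of -0.87 (SE 0.27) did not pass (adjusted p = 0.0719). In LD the difference between phases was 1.02, 0.01 and -0.5 in series 3, 4 and 6 and had no common sign.

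The same gene was higher on the entrainment day than on the next day after both kinds of cycle. In LD series 4 and 6 the scores of *lgc-32* averaged 0.79 ± 0.6 (SD, n = 12), and in DD of these series -0.62 ± 0.86 (SD, n = 12). In WC series 3, 4 and 6 they averaged 0.62 ± 0.85 (SD, n = 18), and in CC -0.68 ± 0.84 (SD, n = 18). The days overlapped in both experiments. The differences of 1.41 (SE 0.32, adjusted p = 0.00174) and 1.3 (SE 0.24, adjusted p = 0.000164) come from separate arrays. Each fit counts the hourly arrays of a series as independent, so these p values do not measure the spread between series. The first was 0.92 and did not pass without series 6 (adjusted p = 0.09). Age and condition cannot be told apart in either.

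**Figure D4:**
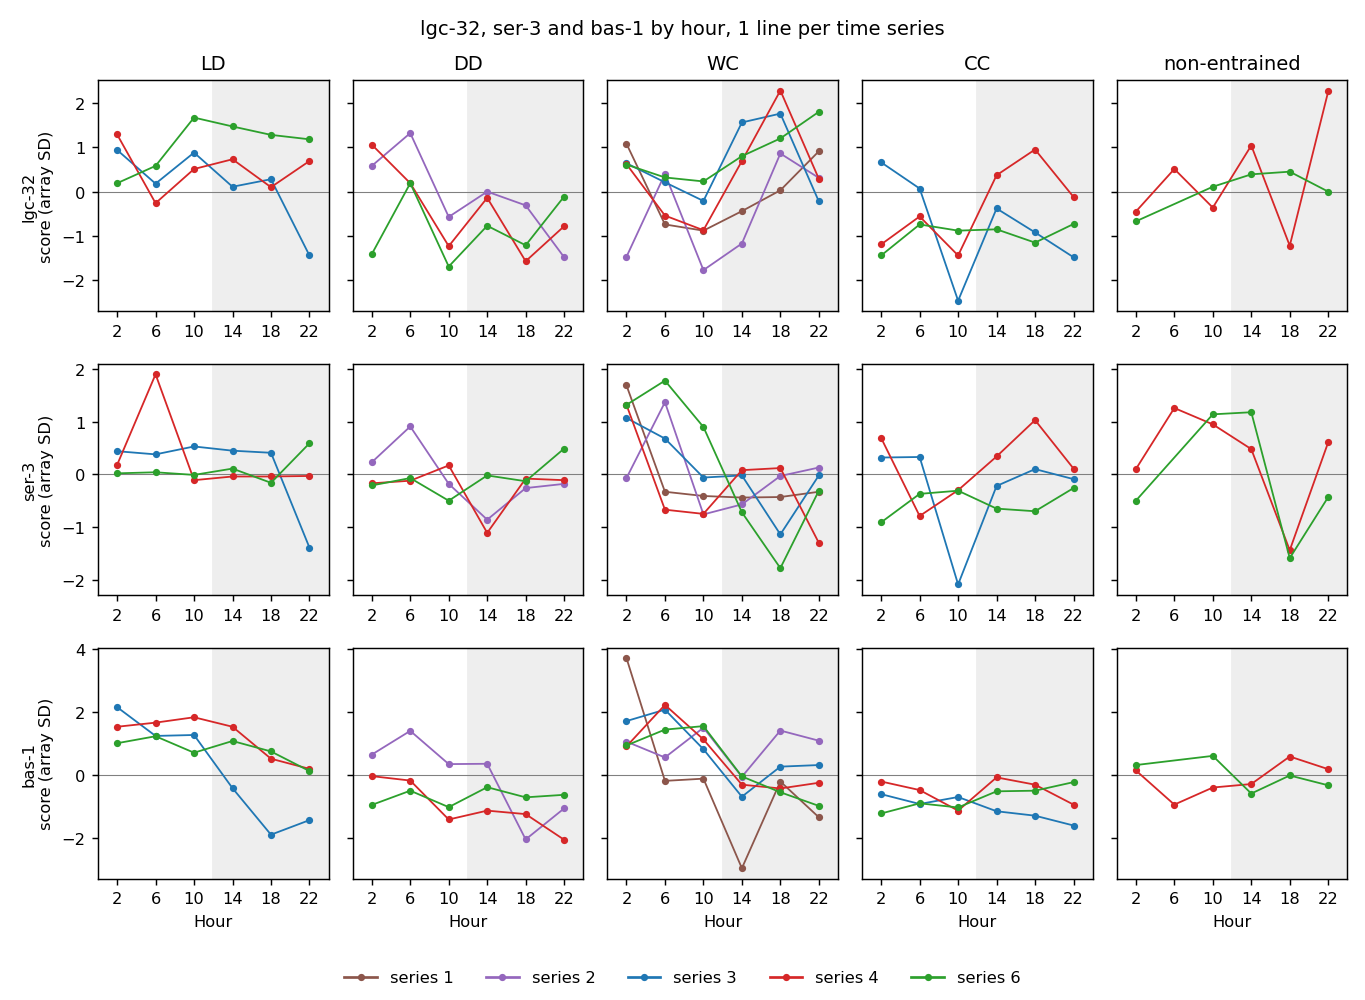
Scores in array SD units (vertical axes) of *lgc-32*, *ser-3* and *bas-1* against the hour of the day, with 1 line per time series and hours 12 to 24 shaded. In WC *lgc-32* is higher at hour 18 than at hour 10 in all 5 series, and *bas-1* has a higher mean in hours 2 to 10 than in hours 14 to 22 in all 3 LD and all 5 WC series.

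Other *lgc* genes gave large but uneven differences. In LD *lgc-27* came nearest to a call: its scores at hour 10 were 2.84, -0.37 and 3.13 in series 3, 4 and 6, the difference between phases was 1.74 (SE 0.52, adjusted p = 0.0506), and it passed without series 4 (2.34, adjusted p = 0.039). In CC the same gene reached 5.77 and 6.94 at hour 2 of series 3 and 4 but -1.01 in series 6, and its difference of 2.97 (SE 1.3) did not pass (adjusted p = 0.304). The 3 CC series all had higher means in hours 2 to 10. In WC the series did not share a sign.

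For *lgc-44* the LD difference of 1.51 (SE 0.69, adjusted p = 0.152) rested on hour 22, at -4.34 and -5.48 in series 3 and 4 against 0.73 in series 6. In DD, *lgc-34* and *lgc-21* had differences of 2.2 (SE 1.06, adjusted p = 0.344) and 1.85 (SE 0.88, adjusted p = 0.34). The highest DD score of *lgc-34* was a single 6.67 at hour 6 of series 2, and that of *lgc-21* was 5.27 at hour 2 of series 6. Without DD series 6 the difference of *lgc-21* was 0.18 (adjusted p = 0.844). In CC *lgc-21* had a difference of the other sign (-0.75, SE 0.35, adjusted p = 0.321).

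No member passed the test of the difference between the LD and DD contrasts (0 of 52, against 0% of all probe sets, with 1 member at an unadjusted p under 0.05). Such a p was found for 1742 of all 17061 probe sets tested. The lowest p values were those of *lgc-21* (-2.36, SE 0.96, adjusted p = 0.417, and -0.69 without DD series 6) and *lgc-34* (-2.2, SE 1.1, adjusted p = 0.506). In the controls *lgc-26* was highest at hour 22 in both series, at 3.16 and 1.42, and its difference between phases of -1.53 (SE 0.4) did not pass (adjusted p = 0.989). The difference of its contrasts between DD and the controls was 1.8 (SE 0.35) and did not pass (adjusted p = 0.0962).

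The means of whole days were compared next. Their p values count the hourly arrays as independent and do not measure the spread between series, of which there were few. Between LD and DD (series 4 and 6, whose days the scores show to be centred together) 16 of 52 members passed, against 52.3% of all probe sets. Of these, 10 had differences of 0.09 to 0.14, close to the difference of 0.09 between the common scores of the LD and DD arrays: *acr-3*, *acr-9*, *acr-10*, *acr-14*, *acr-21*, *glr-4* (189846_at), *lgc-41*, *lgc-55*, *ser-1* and *ser-7*. With the common score of each array subtracted, 6 members passed (42.5% of all probe sets), the same 6 that lay away from that value. The median difference over all probe sets was 0.1.

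Besides *acr-8* and *lgc-32* these were *lgc-22*, *lgc-54*, *lgc-21* and *glr-1*. The scores of *lgc-22* ran from -4.62 to -0.63 in LD (median -1.34) and from -1.95 to 3.63 in DD (median 1.94), a difference of -3.02 (SE 0.62, adjusted p = 0.000768). Those of *lgc-54* ran from -2.63 to 6.42 in LD (median 1.65) and from -3.46 to 0.91 in DD (median -1.81), a difference of 3.48 (SE 0.76, adjusted p = 0.00128). The days overlapped for both genes. With series 6 alone *lgc-22* differed by -1.82 and did not pass (adjusted p = 0.085), and *lgc-54* differed by 3.66 with series 6 alone (adjusted p = 0.0578) and by 3.3 with series 4 alone (adjusted p = 0.0412).

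The difference of *lgc-21* was -2.82 (SE 0.8, adjusted p = 0.00814), of -1.44 with series 4 alone and -4.21 with series 6 alone, neither of which passed (adjusted p of 0.128 and 0.0617). Its scores in series 6 were between -3.22 and -1.86 in all 6 LD arrays and above 2 in 4 of 6 DD arrays. With 6 arrays a day left, these single-series values have few degrees of freedom.

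Between WC and CC (series 3, 4 and 6) 7 of 56 members passed, against 29.7% of all probe sets, and the same 7 passed with the common score subtracted. Higher in WC, besides *lgc-32*, were *acr-18* (3.38, SE 0.84, adjusted p = 0.00295), *lgc-44* (1.63, SE 0.42, adjusted p = 0.00366), *glr-4*, *gar-2* and *lgc-34* (1.91, SE 0.69, adjusted p = 0.0374; named although it is the 7th by p). The mean of *acr-18* in WC, 1.37 ± 3.88 (SD, n = 18), was carried by hours 6 and 10, described above. Lower in WC was *lgc-27*, whose scores ran from -3.41 to 3.15 (median -1.69) in WC and from -2.17 to 6.94 (median 0.18) in CC, a difference of -2.8 (SE 0.75, adjusted p = 0.00529). Without series 6 the number passing fell to 4. Without 1 series at a time the calls were lost for *acr-18* (without series 3, 3.11, adjusted p = 0.0545), *lgc-44* (without series 6, 1.31, adjusted p = 0.097) and *lgc-27* (without series 4, -1.69, adjusted p = 0.12). The call of *gar-2* was also lost, as given below. For *lgc-34* no values without 1 series are given here.

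**Figure D5:**
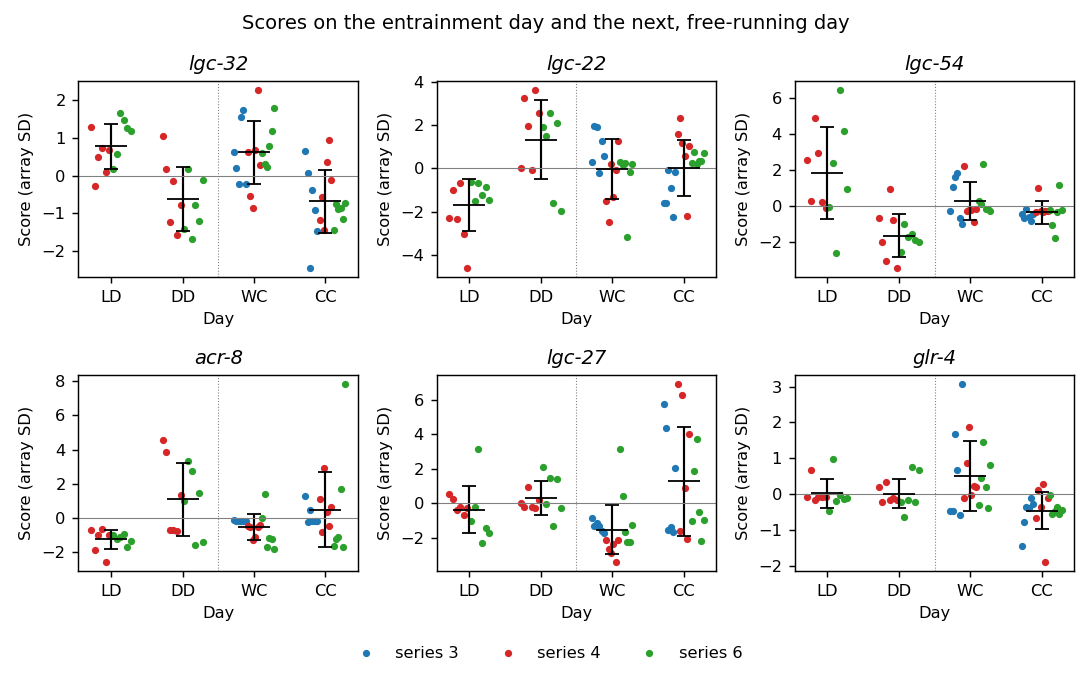
Scores in array SD units (vertical axes) of 6 receptor genes on the entrainment days LD and WC and on the following days DD and CC, over the series centred together, with points for arrays and bars for the mean and SD (n = 12 for LD and DD, n = 18 for WC and CC). *lgc-32* has the higher mean in LD than in DD and in WC than in CC, and the arrays of both days overlap for every gene.

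Among the ionotropic glutamate receptors no gene passed a daily test. *glr-1* encodes an AMPA-type subunit of the command interneurons and has 2 probe sets. The first (172066_x_at) was lower in LD than in DD by 1.22 on the score scale (estimate -1.22, SE 0.37, adjusted p = 0.0128), at -1.62 to -0.9 in LD of series 4 and -0.2 to -0.11 in LD of series 6. The second (187868_s_at) had a difference of the same sign that did not pass (-0.39, SE 0.24, adjusted p = 0.181). Without series 4 the first was -0.31 and did not pass (adjusted p = 0.389). Both IDs mark probe sets that may also bind related transcripts.

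A probe set of *glr-4* (174456_at) was higher in WC than in CC (0.98, SE 0.23, adjusted p = 0.0019). Its scores ran from -0.59 to 3.08 in WC (median 0.21) and from -1.9 to 0.28 in CC (median -0.38), and the call held without any 1 series (highest adjusted p = 0.0384). Of the other *glr-4* probe sets, 190059_at rested on the common score in all 5 conditions and 189846_at lay between -0.22 and 0.31 in those series. In CC *glr-1* had a difference between phases of -0.67 (172066_x_at, SE 0.31, adjusted p = 0.323, and -0.2 without series 6), and in the controls *glr-6* had one of 0.43 (SE 0.2, adjusted p = 0.989).

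Of the muscarinic-type receptors, *gar-3*, which couples to Gq in pharynx and neurons, had the lowest p of any member in CC. Hour 14 was the highest of the day in all 3 CC series, at 1.18, 2.15 and 1.08 (175791_at), and the difference between phases was below 0 in each. The estimate of -1.09 (SE 0.36) did not pass (adjusted p = 0.208). A second probe set of *gar-3* (192386_s_at) had no CC score more than 1 above the common score and 3 more than 1 below it. The third (192479_s_at) rested on the common score in CC. *gar-2*, which couples to Go, was higher in WC than in CC on the day mean (0.69, SE 0.21, adjusted p = 0.0146), from a mean of 0.26 ± 0.9 to -0.43 ± 0.35 (SD, n = 18 each), and this did not pass without series 4 (0.82, adjusted p = 0.0612) or series 6 (0.45, adjusted p = 0.123).

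Of the amine receptors, *ser-3*, an octopamine receptor, came nearest to a call. In WC its scores at hour 2 were 1.69, -0.07, 1.07, 1.32 and 1.32 in series 1, 2, 3, 4 and 6, and at hour 18 they were -0.43, -0.03, -1.14, 0.12 and -1.78. The warm-minus-cold difference was above 0 in all 5 series, from 0.33 to 2.27, with an estimate of 0.92 (SE 0.27) that did not pass (adjusted p = 0.0632). It passed without series 2 (1.07, adjusted p = 0.0273).

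In CC the difference of *ser-3* was -0.41, -0.63 and 0.01, and WC minus CC was 1.27 (SE 0.44, adjusted p = 0.0862). In the controls the difference was 0.87 (SE 0.32) and did not pass (adjusted p = 0.989). The difference between the WC and control contrasts was not tested. Hour 18 was the lowest of the day in both control series, at -1.44 and -1.59. The serotonin receptor gene *ser-4* (175772_s_at) had differences of 1.05 in LD (SE 0.48, adjusted p = 0.157) and 0.82 in DD (SE 0.33, adjusted p = 0.281), and in the controls its 11 scores ran from -6.66 to 3.19. The other *ser-4* probe set (176298_at) had no LD score more than 1 from the common score. In DD it had 2 such scores above and 1 below.

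The other genes of these pathways, 64 in a list of further receptor genes, receptor assembly factors and enzymes and transporters of the transmitters, gave 2 called genes. Of the 64, 59 were on the array. In the difference between phases, 1 of 40 probe sets tested in LD was higher in hours 2 to 10 (against 6.24% of all) and 0 in hours 14 to 22 (against 5.26%). In WC 1 of 54 was higher in hours 2 to 10 (against 2.08%) and 0 in hours 14 to 22 (against 1.76%). In both it was *bas-1*, the decarboxylase that makes serotonin and dopamine. None was called in DD, CC or the controls. Of the 29 further receptor genes on the array, 13 were tested in LD, 14 in DD, 20 in WC, and 15 each in CC and the controls. None of those tested was called, and the others rested on the common score.

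The scores of *bas-1* at hour 2 of WC were 3.7, 1.06, 1.71, 0.91 and 0.94 in series 1, 2, 3, 4 and 6, and at hour 14 they were -2.94, -0.05, -0.68, -0.3 and -0.04. Hour 2 was above hour 14 in each series, and the 2 sets of scores did not overlap. Taken over all hours, the warm and cold phases overlapped (lowest warm score -0.18, highest cold score 1.41). The warm-minus-cold difference was 1.6 (SE 0.35, adjusted p = 0.0106) and the light-minus-dark difference 1.35 (SE 0.35, adjusted p = 0.0341). In LD it was 2.79, 0.92 and 0.33 in series 3, 4 and 6, and the call was lost without any 1 of them (0.63 without series 3, 1.56 without series 4 and 1.86 without series 6, adjusted p of 0.124 to 0.205). In WC it did not pass without series 3, 4 or 6 (adjusted p of 0.0814 to 0.0917). In CC and the controls the differences were -0.06 and -0.13, and in DD 0.8 (adjusted p = 0.283).

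In the 24-h test of WC *bas-1* (amplitude 1.05, SE 0.26, adjusted p = 0.0405) and *lev-10* passed, 2 of 54 against 6.29% of all probe sets. The first was lost without series 3, 4 or 6 (adjusted p of 0.166 to 0.206). LEV-10 clusters acetylcholine receptors at the neuromuscular junction. The amplitude of *lev-10* (174766_at) was 1.03 (SE 0.25, adjusted p = 0.0281) with a peak at hour 2.57, and a second probe set (176962_s_at) had an amplitude of 0.13 (adjusted p = 0.932). The call of *lev-10* was lost without any of series 1, 3, 4 or 6 (adjusted p of 0.108 to 0.157).

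Marker genes of tissues were tested in the same way. In LD, where 11.5% of all probe sets passed, 3 of 24 probe sets tested from 15 neuronal genes were called (2 higher in the light phase and 1 in the dark phase), a share close to that background. The mean scores of the neuronal list lay between -0.65 and 0.48 in hours 2 to 10 and between -0.96 and -0.08 in hours 14 to 22. Of 9 body wall muscle genes, 13 of 20 probe sets tested in LD were called higher in hours 2 to 10 and none in WC, DD, CC or the controls. In LD, 2 of 10 hypodermis and 1 of 8 intestine probe sets were also called higher in hours 2 to 10. There, 1 of 3 sperm probe sets was called higher in hours 14 to 22, and pharyngeal muscle and germline had 0 calls. In WC no neuronal probe set was called between phases, and 1 of 9 intestine probe sets was called higher in hours 14 to 22 (3.84% of all probe sets were called between phases). The 24-h test of WC, passed by 6.29% of all probe sets, was passed by 2 of 10 hypodermis, 1 of 9 intestine and 1 of 24 neuronal probe sets. The part of these shifts in the receptor values was not tested. Because scores carry no level, the labelled tissue could not be checked against marker levels.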

How the data were processed

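RNA of whole adults was hybridised to Affymetrix *C. elegans* arrays, 95 in all. The deposited values are scores: per the methods, the authors ran GCRMA in R 2.7.1, subtracted from each log2 value the average of that probe set in its series, and gave every array a mean of 0 and unit variance. The files list 22625 probe sets, of which 77 are array controls and were dropped. A single value is missing. Gene symbols came from the platform annotation, and all 89 member symbols were found in the RefSeq gene table.

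From the scores, limma 3.58.1 (R 4.3.3) was fitted per condition with hour as a factor and the time series as a block, to all probe sets with a root mean square distance of at least 0.1 from the common score, the median of the densest 5% of an array's scores. Named genes were all members called, up to 12 for a condition and 6 for a comparison, or the 4 (comparisons, 2) with the lowest p where fewer passed. Each main kind of fit was tested on simulated data, but not every comparison or alternative. The simulated scores were independent noise with added changes and no series effects, so they do not show how the p values hold in these data. The members and the lists of pathway and marker genes were chosen with earlier results of these data known. Alternatives changed the filter, array scaling, block and time model, or left out pooled arrays, cross-hybridising probe sets or 1 series. Precision is limited by the number of arrays. Sequences were not used here.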

Additional observations from a re-analysis of the deposited data

Results flagged for a closer look

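In WC the score of *lgc-32* at hour 2 of series 2 was -1.47, while the other 4 series lay between 0.61 and 1.08. The score of *acr-12* at hour 2 of series 4 was -0.6, while the other 4 lay between -0.13 and -0.1. Both were set apart from their group by more than 95% of samples of 5 would be, among 28 groups examined, and chance sets apart about 1 group in 20.

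Contrasts between phases differed between conditions for 3 subunit genes of the nicotinic type. That of *acr-11* differed by -1.78 between LD and the controls and by -1.84 between DD and the controls, through 1 control array. That of *acr-12* differed by 1.55 between LD and WC, and that of *acr-18* by -3.74.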

How the results depend on the processing

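Under the alternatives, 389 of the values given for single genes kept their direction and their side of the threshold, 61 no longer passed, 13 passed newly, and 2 reversed. The reversed values were those of *acr-11* without control series 4, at 0.0571 (LD minus controls, lowest value without 1 series -1.86) and 0.00467 (DD minus controls, lowest value -1.85). Those fits held no control array of hour 6, the hour of the high score, so the reversal is of a contrast over fewer hours. The number of members called in the difference between phases became 1 in LD, instead of 0, with the wider filter (distance of 0.2), without the series block, and with the common score of each array subtracted, an alternative chosen after seeing the data. In WC it became 2, instead of 1, with scaling by the median absolute deviation and 3 without the block. Leaving out 1 series gave 0 to 1 members in LD and 0 to 3 in WC. In the 24-h test of WC, 1 member instead of 2 passed with no filter and 0 to 2 without 1 series, and in the test within phases 0 to 1. The difference between LD and WC called 1 instead of 2 members with no filter, with scaling by the median absolute deviation and without pooled arrays, and 0 to 2 without 1 series. The difference between WC and CC called 0 to 2. LD minus controls and DD minus controls called 1 to 12 members each without 1 series, in fits where the lone control series is assumed to vary like the others. For the day mean of LD minus DD, 72 members instead of 16 passed with no filter, and 6 with the wider filter, the median scaling, the common score subtracted, or no pooled arrays, and 1 to 3 with a single series. For WC minus CC, 4 to 6 instead of 7 passed. The causes of these shifts were not tested. The tests of the controls alone between and within phases could not be fitted without a control series.

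Among all probe sets, the 1839 calls between phases in LD became 939 with no filter, 598 without pooled arrays, 988 without cross-hybridising probe sets and 0 to 933 without 1 series. In WC the 666 calls ranged from 209 to 2000 without 1 series, and the 1091 calls of the 24-h test from 344 to 1700. The 160 calls of the 24-h test in LD became 0 without any 1 series. The 49 calls of LD minus controls became 13 to 3075, and the 14 of DD minus controls 1 to 2461. The series numbers were used only as a block within conditions, and without the block *lgc-32* no longer passed the 24-h test in WC (0.75, adjusted p = 0.067). Scores give no level, so a gene at the detection limit and a steady gene cannot be told apart.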
